A study of Culex quinquefasciatus with 12 samples.

Results

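Among 19751 genes on a custom array of the southern house mosquito Culex quinquefasciatus, 63 were lower in the midgut of Bin toxin-treated larvae at 18 h while their averages at 6 and 12 h lay close to those of untreated larvae. They were chosen by their measured log2 ratios of toxin-treated over untreated signal. A member averaged -0.8 or less at 18 h, lay below -0.4 on each of the 4 arrays of 18 h, averaged between -0.5 and 0.5 at both earlier times, and had a spot with untreated signal well above background on all 12 arrays, which 14578 genes had. All 3 exposure times entered this choice, so every ratio below describes the selected genes and no test of the toxin is drawn from them. The same limits without the detection requirement held 87 genes, and 65 genes passed if any spot of the gene could serve on each array.

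The study exposed third-instar larvae of the JHB strain, starved for 3 h beforehand, to BinA and BinB mixed at equal molarity at 80 ng/ml, the LC90 dose, for 6, 12 or 18 h, and set each group against untreated larvae of the same time. The labels give batches of 20 larvae for each of the 4 biological replicates per time and pools of at least 20 midguts for RNA. Only larvae still living at the end of the exposure were dissected, so the toxin-treated pools represent larvae alive at that time. The share that had died by then is not given in the sources used here. Toxin-treated RNA was labelled with Cy5 and untreated RNA with Cy3 on every one of the 12 arrays, without a dye swap. The 4 arrays of a time shared 1 slide and 1 scan, so slide and exposure time cannot be told apart, nor can an effect of dye and an effect of toxin.

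Bin is the binary mosquitocidal toxin of Lysinibacillus sphaericus. In Culex larvae BinB attaches to an alpha-glucosidase anchored on the surface of midgut epithelial cells, and both components are needed for full toxicity. The same epithelium secretes trypsins, chymotrypsins, carboxypeptidases and sugar-splitting enzymes into the gut lumen, takes up the products, and carries cytochromes P450 that oxidise foreign and endogenous compounds.

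The members were not alike in how well they were measured. At 18 h 46 of them had no saturated spot in either channel, and 3 had some saturated spots. In 14 the toxin channel was saturated, its signal cut off at the scanner's maximum, for every spot on all 4 arrays. The 46 genes without saturation, called measured below, spanned the 3.53 to the 97.5 percentile of untreated signal among detected genes, with a median of 70.9, whereas the 14 saturated genes lay between the 98.4 and the 99.5 percentile. A saturated spot has no ratio of its own, and the values of these 14 genes are given apart from the rest. In all of the 14 but CPIJ001036 and CPIJ016135 the toxin channel was saturated in the same way at 6 h and at 12 h. Their averages inside the limits at those times were therefore not fully measured either. In the study's list of changed genes, 27 of the 63 identifiers have a functional name, 12 are called hypothetical, conserved or predicted proteins, and 24 are not listed, of which 1, CPIJ006763, is named in the study's methods. The list holds only genes selected on these same arrays, so the names cover the members unevenly and give no independent evidence of direction.

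**Figure D1:**
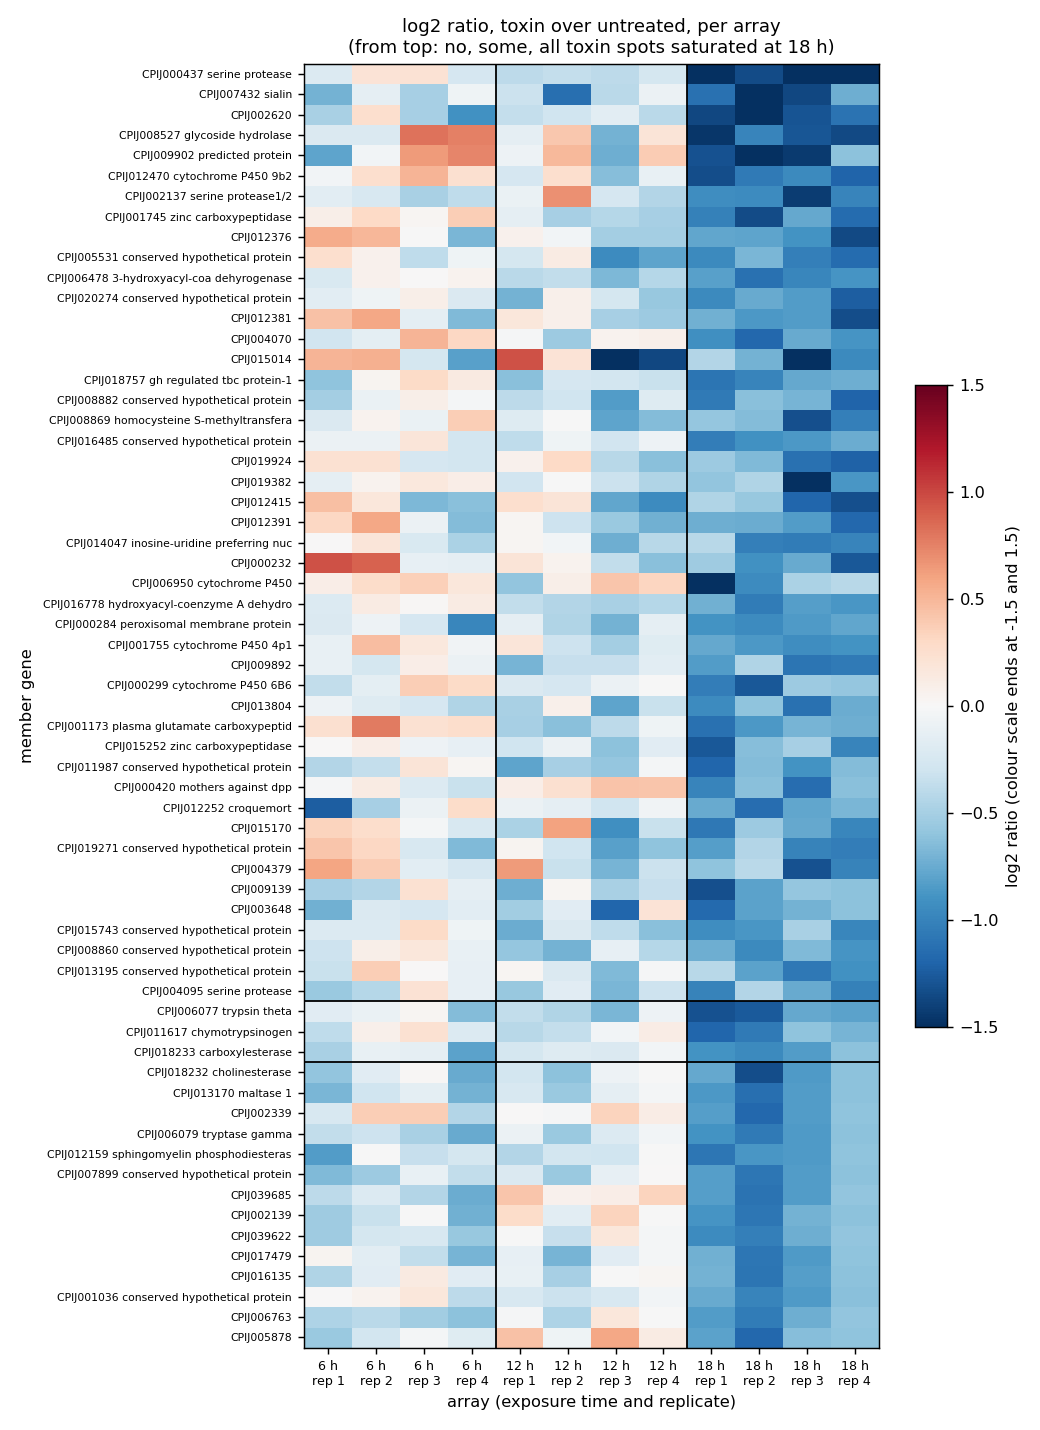
Log2 ratio of toxin-treated over untreated signal for the 63 members (rows) on the 12 arrays (columns, grouped by exposure time), with blue for lower in toxin-treated midguts. The 18 h columns are blue throughout by the choice of genes, and in the lowest block, the 14 genes with a saturated toxin channel, the values on 18 h replicate 4 lie between -0.63 and -0.59 and those on replicate 2 between -1.33 and -0.87.

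Across the 46 measured genes the median log2 ratio ran from -0.02 after 6 h through -0.34 after 12 h down to -0.87 after 18 h of exposure, beside medians of 0.02, -0.0009 and -0.03 over all detected genes. The 12 h average lay below 0 in 43 of the 46, against 50.1% of all detected genes. It lay below the gene's own 6 h average in 41 of the 46, against 52.8% of detected genes without saturation. Most of the measured genes therefore held a lower average at 12 h than at 6 h, inside the limits that the choice allowed. In replicates 1 to 4 the medians of the measured genes were -0.15, 0.07, 0.01 and -0.12 on the 6 h arrays, -0.26, -0.16, -0.50 and -0.33 on the 12 h arrays, and -0.94, -0.86, -0.89 and -0.98 on the 18 h arrays. In this median every 18 h array was lower than every earlier array.

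Gene by gene the separation between times was less complete. All 4 arrays of 18 h lay below all 4 arrays of 12 h in 37 of the 63 members (21 of the 46 measured), where 8.03% of all genes on the array showed the same order. Against 6 h the count was 44 of 63 (37 of 46 measured), with 8.29% of all genes, and 26 of 63 (19 of 46) lay below every array of both earlier times, with 2.32% of all genes. With limma, where a call needed an adjusted p under 0.05 together with an absolute log2 value of 0.75 or more, 62 members were called lower at 18 h, where 4.60% of all genes were called lower and 4.91% higher. The rule used this contrast, so nothing is read from the 62. The contrast of 18 h with 12 h called 14 members lower (2.35% of all genes) and that of 18 h with 6 h called 35 (2.49% of all genes), and 9 were called in both. Without 18 h replicate 1 the first count was 9 (1.34% of all genes), and without 6 h replicate 2 or 3 the second was 17 (1.74% and 1.89% of all genes). Most members were thus not called different from 12 h, and a call at 18 h alone does not show that a gene was unchanged earlier. The 9 measured genes among the 14 were CPIJ000437, CPIJ002620, CPIJ008527, CPIJ009902, CPIJ012470, CPIJ002137, CPIJ004070, CPIJ006950 and CPIJ000420. The other 5, CPIJ002339, CPIJ002139, CPIJ005878, CPIJ039622 and CPIJ039685, had a saturated toxin channel at 18 h.

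Proteases were the group with most named members. Digestive trypsin-like serine proteases cut proteins in the gut lumen. Of 73 genes in the study's list with names such as trypsin, chymotrypsin or serine protease, 6 were members, 3 of them free of saturation. These 73 were taken by name alone, and whether their products act in the lumen was not tested. Of the 3 free of saturation, the study groups CPIJ004095 under immunity only, and CPIJ000437 and CPIJ002137 under unknown function. CPIJ000437, named serine protease, had the lowest average of all 63, with log2 ratios of -0.21, 0.21, 0.22 and -0.25 in the 4 replicates of 6 h, -0.39, -0.36, -0.39 and -0.27 in those of 12 h, and -2.42, -1.34, -2.24 and -2.02 in those of 18 h. Its 18 h arrays all lay below its lowest earlier array, and the toxin-treated signal averaged 0.249 of the untreated signal at 18 h.

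CPIJ002137, named serine protease1/2, read -0.16, -0.25, -0.49 and -0.39 on the 6 h arrays, -0.10, 0.68, -0.25 and -0.44 on the 12 h arrays, and -0.94, -0.94, -1.43 and -0.99 on the 18 h arrays. The 18 h arrays lay below all 8 earlier ones, and replicate 2 of 12 h was the one array on which the gene was higher in toxin-treated midguts. CPIJ004095, also named serine protease, sat at the limit with an average of -0.80, and its arrays of 18 h (between -1.01 and -0.44) overlapped those of 12 h (between -0.68 and -0.17). Trypsin theta (CPIJ006077) read -1.31, -1.26, -0.77 and -0.81 at 18 h, and chymotrypsinogen (CPIJ011617) read -1.19, -1.06, -0.61 and -0.70, but part of the spots of both were saturated at that time. Tryptase gamma (CPIJ006079) was saturated in both channels on all 4 arrays of 18 h, and no ratio was measured for it.

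Carboxypeptidases remove amino acids from the end of a peptide chain, and 3 of the 56 genes named as other peptidases were members, all 3 measured and between the 95.7 and the 96.7 percentile of untreated signal. CPIJ001745, a zinc carboxypeptidase, read 0.09, 0.30, 0.03 and 0.36 after 6 h, -0.14, -0.49, -0.42 and -0.50 after 12 h, and -1.01, -1.35, -0.77 and -1.15 after 18 h. The 3 times did not overlap on any array, the 12 h values standing between the others, and the toxin-treated signal averaged 0.476 of the untreated signal at 18 h. The second zinc carboxypeptidase, CPIJ015252, averaged -0.02 after 6 h, -0.29 after 12 h and -0.85 ± 0.35 after 18 h (SD, n = 4). Its values at 18 h ran from -1.28 to -0.50 and overlapped those of 12 h. CPIJ001173, named plasma glutamate carboxypeptidase after a mammalian peptidase, read 0.24, 0.78, 0.23 and 0.26 on the 6 h arrays, -0.50, -0.63, -0.40 and -0.06 on the 12 h arrays, and -1.12, -0.86, -0.69 and -0.73 on the 18 h arrays. It was higher in toxin-treated midguts on all 4 arrays of 6 h and lower on all 8 later ones.

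Sugar-splitting enzymes gave 1 measured member and 1 that was not measured. CPIJ008527, a glycoside hydrolase, an enzyme class that cuts bonds between sugars, read -0.22, -0.22, 0.82 and 0.75 after 6 h, -0.14, 0.41, -0.71 and 0.19 after 12 h, and -1.46, -0.99, -1.29 and -1.36 after 18 h. The earlier arrays were spread on both sides of 0 and the 18 h arrays were all below them. The study groups this gene under unknown function. Maltase 1 (CPIJ013170), which carries the name of an alpha-glucosidase that splits maltose, was saturated in both channels on all 4 arrays of 18 h. It was the only member among 21 genes named for starch and sugar digestion.

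**Figure D2:**
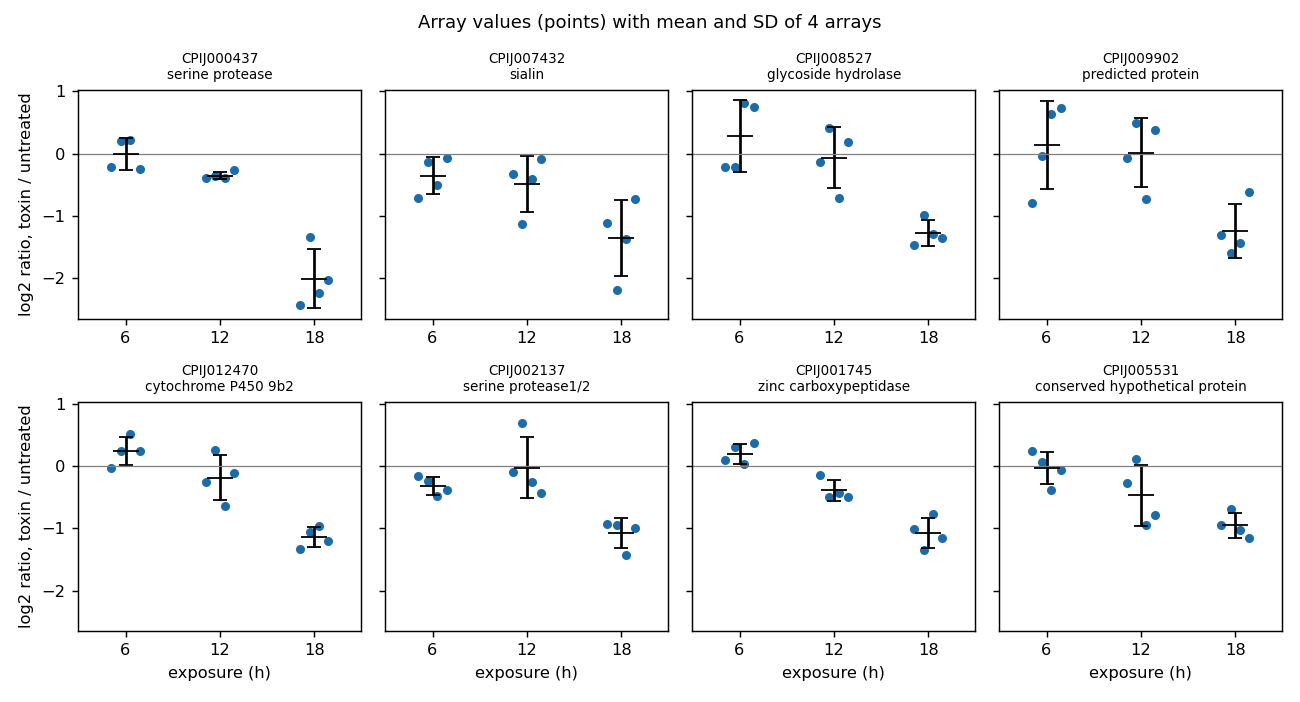
Log2 ratio of toxin-treated over untreated signal at 6, 12 and 18 h for the 8 named, unsaturated genes with the lowest averages at 18 h, as array values (points) with mean and SD of 4 arrays. The zinc carboxypeptidase CPIJ001745 steps down at each time, whereas the glycoside hydrolase CPIJ008527 and CPIJ009902 spread around 0 at 6 and 12 h.

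Cytochromes P450, the haem enzymes of detoxification and hormone metabolism, made up 4 members of the 90 genes so named, and none of the 4 was saturated. CPIJ012470, cytochrome P450 9b2, read -0.04, 0.25, 0.51 and 0.24 after 6 h, -0.25, 0.26, -0.63 and -0.11 after 12 h, and -1.32, -1.06, -0.96 and -1.20 after 18 h, so that its 18 h arrays stood apart from all earlier ones. Cytochrome P450 4p1 (CPIJ001755) read -0.77, -0.86, -0.94 and -0.90 at 18 h, an SD of 0.07. Cytochrome P450 6B6 (CPIJ000299) averaged 0.04 after 6 h, -0.14 after 12 h and -0.86 ± 0.36 after 18 h (SD, n = 4). CPIJ006950, named cytochrome P450 without a family, read -1.64, -0.94, -0.48 and -0.41 at 18 h, and replicate 1 stood lowest by a wide margin.

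Outside these families, 2 members are named as hydroxyacyl-CoA dehydrogenases. CPIJ006478, a 3-hydroxyacyl-CoA dehydrogenase, which catalyses an oxidation step of the beta-oxidation cycle, averaged -0.03 after 6 h, -0.47 after 12 h and -0.95 ± 0.13 after 18 h (SD, n = 4). CPIJ016778, a hydroxyacyl-coenzyme A dehydrogenase that fell outside the rule for naming genes and was picked out after its values were seen, averaged 0.01, -0.43 and -0.87 ± 0.13 at the same times. Both were lower at 12 h than at 6 h and lower again at 18 h, and in both the 18 h arrays did not overlap either earlier time. No list of other fatty acid oxidation genes was counted.

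The remaining lowest members had other roles or none known here. Sialin (CPIJ007432) carries the name of a mammalian exporter of sialic acid from lysosomes and read -0.70, -0.14, -0.50 and -0.07 on the 6 h arrays, -0.32, -1.13, -0.40 and -0.08 on the 12 h arrays, and -1.12, -2.18, -1.37 and -0.73 on the 18 h arrays. Replicate 2 was its lowest array at both 12 and 18 h, and the times overlapped. CPIJ002620, without a name here, read -1.36, -1.60, -1.29 and -1.10 at 18 h, but its probes disagreed, with averages between -1.95 and -0.77. CPIJ009902, a predicted protein, ran between -0.80 and 0.73 at 6 h and read -1.30, -1.59, -1.43 and -0.61 at 18 h. CPIJ005531, a conserved hypothetical protein, averaged -0.47 at 12 h and -0.95 ± 0.19 at 18 h (SD, n = 4).

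The other measured genes with functional names were picked out after their values were seen. Mothers against dpp (CPIJ000420), which in Drosophila carries the signal of the growth factor Dpp into the nucleus, was the member with the highest average at 12 h. It read -0.02, 0.13, -0.20 and -0.33 after 6 h, 0.09, 0.24, 0.43 and 0.42 after 12 h, and -0.99, -0.62, -1.14 and -0.62 after 18 h. It was therefore higher in toxin-treated midguts on all 4 arrays of 12 h and lower on all 4 of 18 h. Croquemort (CPIJ012252), a scavenger receptor of the CD36 family known in Drosophila for the uptake of dead cells, averaged -0.39, -0.15 and -0.84 at the 3 times, and its 6 h arrays ran from -1.24 to 0.27. Homocysteine S-methyltransferase (CPIJ008869), which makes methionine, averaged 0.03, -0.41 and -0.89. The inosine-uridine preferring nucleoside hydrolase (CPIJ014047), which splits nucleosides into base and ribose, averaged -0.87 at 18 h, as did a peroxisomal membrane protein (CPIJ000284), and the GH regulated TBC protein-1 (CPIJ018757) averaged -0.90.

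The members were a small part of each named family. Of the trypsin-like serine proteases 27 of 73 were called lower at 18 h and 10 higher, with a family median of -0.62, where 4.60% of all genes were called lower and 4.91% higher, and 21 of the 27 were not members. Of the other peptidases 25 of 56 were called lower and 2 higher (median -0.67), of the cytochromes P450 32 of 90 and 3 (median -0.57), and of the genes of starch and sugar digestion 11 of 21 and 0 (median -0.80). The median over all genes was 0.004. The 12 h medians of these 4 families were -0.40, -0.45, -0.54 and -0.21 in that order. The 7 other families, made by words in the gene names, had no member. Sialin (CPIJ007432), a member that the study groups under transport, was outside the membrane transporter list because its name holds none of the words used. Of the 23 lipases 8 were called lower and 2 higher (median -0.80), and of the 20 glucuronosyltransferases 9 and 1 (median -0.61), so low families without a member also occurred. The counts were 14 and 11 of 96 membrane transporters (median -0.15), 5 and 5 of 45 immune recognition genes (median -0.29), 2 and 0 of 15 peritrophic matrix and chitin genes (median 0.27), 0 and 0 of 5 vacuolar ATPase genes (median -0.42) and 0 and 1 of 24 cuticle genes (median 0.37). All these families hold only genes the study listed from the same arrays, and their counts are not independent of that choice. Genes with saturated spots were left in these counts and medians, and their number in each family is not given here. Over all genes 908 were called lower at 18 h, and 791 with saturated spots left out. The family values are therefore not all measured differences.

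Some members had identifier numbers close to each other. With a gap of at most 10 between consecutive numbers, 15 members formed 7 groups, 6 of them pairs. The same count over all detected genes was not made, so the groups are not read as a trait of the members. Among the pairs were the trypsin theta and tryptase gamma genes CPIJ006077 and CPIJ006079. Another pair was the zinc carboxypeptidase CPIJ001745 with the cytochrome P450 gene CPIJ001755. The single group of 3 was CPIJ012376, CPIJ012381 and CPIJ012391, with no name here. CPIJ012376 read 0.56, 0.50, -0.01 and -0.69 at 6 h, and -0.78, -0.79, -0.90 and -1.36 at 18 h. CPIJ012381 read 0.44, 0.58, -0.15 and -0.67 at 6 h, and -0.73, -0.86, -0.84 and -1.33 at 18 h. CPIJ012391 read 0.31, 0.58, -0.09 and -0.65 at 6 h, and -0.73, -0.74, -0.84 and -1.17 at 18 h. In all 3 genes the lowest array of each of these times was replicate 4. At 12 h they were less alike, with -0.04, 0.08 and -0.31 on replicate 2 in the same order of genes, and whether the probes tell their transcripts apart was not tested.

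The saturated members form a class of their own. On the array 70 genes were saturated in both channels on all 4 arrays of 18 h, and their average log2 ratios at 18 h lay only between -0.89 and -0.73, with a median of -0.83, so that 54 of them passed the limit of -0.8 without a measured difference. On the single arrays of 18 h the genes saturated in both channels had medians of -0.91, -0.97, -0.85 and -0.61. The 14 members with a saturated toxin channel averaged between -0.89 and -0.80, inside the same narrow band. In 4 of the 14 the untreated channel was saturated on all 4 arrays too, and in the other 10 on 1 to 3 arrays. The 70 genes had a median of -0.76 at 6 h, which put 66 of them outside the 6 h limits of the choice, and of -0.22 at 12 h.

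**Figure D3:**
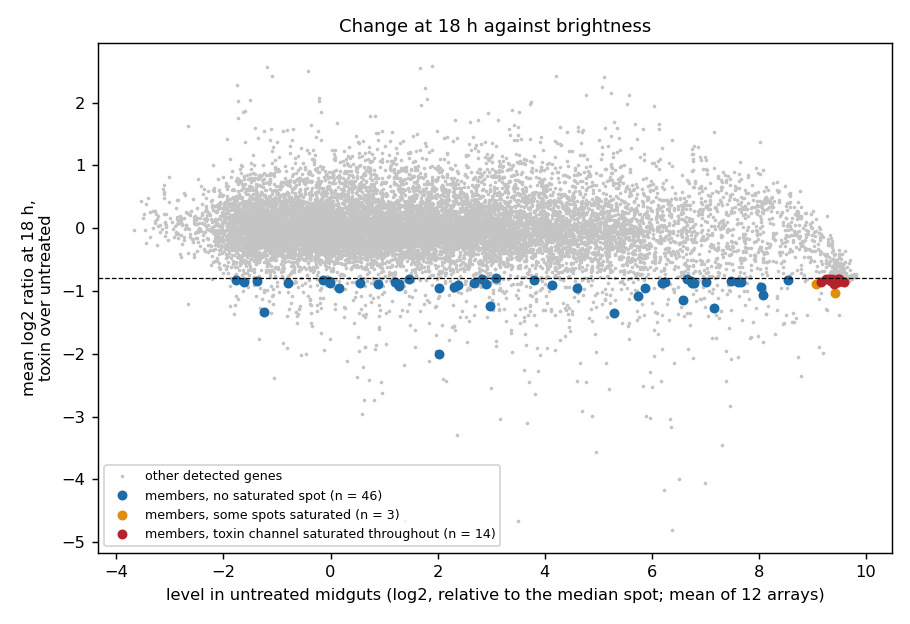
Average log2 ratio at 18 h (toxin-treated over untreated) against the level in untreated midguts (log2, relative to the median spot, mean of 12 arrays) for detected genes, with the 63 members coloured by saturation and a dashed line at -0.8. At the bright end the cloud narrows to a point just below the line, where the 14 members with a saturated toxin channel lie, while the 46 measured members span the range of levels.

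Among these 14 was CPIJ006763, which the study's methods name as ribosomal protein S7, a component of the small ribosomal subunit that served there as the reference gene for quantitative PCR. Its printed ratios of -0.84, -1.04, -0.73 and -0.59 at 18 h lay close to the medians of the doubly saturated genes on the same arrays, and no change was measured for it. The same holds for sphingomyelin phosphodiesterase (CPIJ012159), which releases ceramide from sphingomyelin, for cholinesterase (CPIJ018232), an ester-splitting enzyme, and for CPIJ001036, CPIJ002139, CPIJ002339, CPIJ005878, CPIJ007899, CPIJ016135, CPIJ017479, CPIJ039622 and CPIJ039685. Carboxylesterase (CPIJ018233), next to cholinesterase in number, was partly saturated and averaged -0.82 at 18 h. A toxin channel saturated throughout 18 h was found in 14 of 63 members, or 22.2%. By the same limits it was found in 0 of 159 genes lower only at 12 h, 0 of 51 higher only at 18 h and 0 of 153 lower at all 3 times. Those limits shut out the genes saturated in both channels, which averaged -0.89 to -0.73 at 18 h and -0.27 to -0.02 at 12 h. The share over all detected genes was not counted, so nothing is read from the difference between the sets.

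A lower ratio at 18 h than at 12 h can come from either channel, since each array carried its own untreated sample. With each channel set relative to its median spot, the toxin-treated level of the measured genes was lower at 18 h than at 12 h in 32 of 46 (median difference -0.23 on the log2 scale) and the untreated level was higher in 39 of 46 (median difference 0.29). Over detected genes without saturation 48.7% and 50.5% moved in these directions. Both held in 25 of the 46, only the toxin-treated level moved so in 7, and only the untreated level in 14. The choice set the ratio at 18 h below that at 12 h, so such moves were favoured in advance and the counts only describe the members. Within the members the lower ratio at 18 h went with a higher untreated level at least as often as with a lower toxin-treated level. Against 6 h the toxin-treated level of the measured genes differed by a median of 0.07 and the untreated level by 0.97. Over detected genes without saturation these medians were 0.37 and 0.28. Under quantile scaling of the channels the members' differences were -0.47 and 0.35, so the shares of the channels against 6 h depend on the scaling. Levels of different times were read on different slides.

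**Figure D4:**
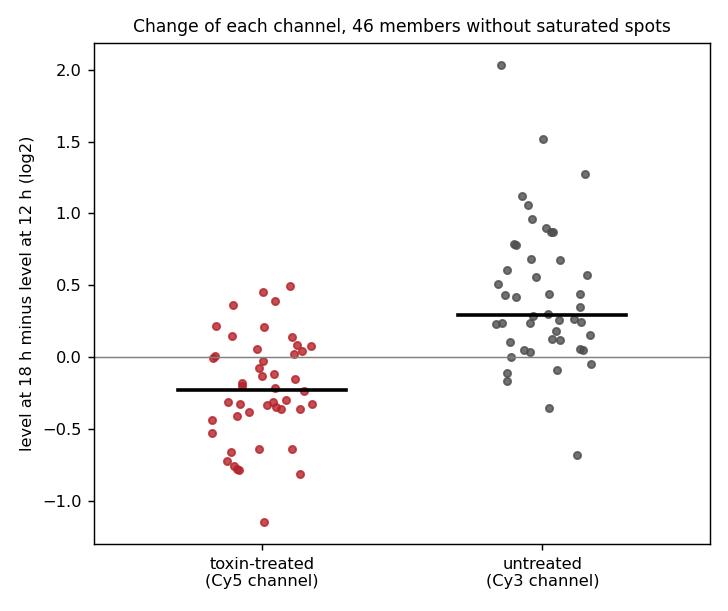
Level at 18 h minus level at 12 h (log2, each channel relative to its median spot) for the 46 members without saturated spots, toxin-treated on the left and untreated on the right, with the median as a bar. The medians are -0.23 and 0.29, and points lie on both sides of 0 in each channel.

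The membership limit cut through a continuous range. Of the 63 members 23 lay within 0.05 of -0.8, and the median SD over the 4 arrays of 18 h was 0.24, so many members and near neighbours were closer to the limit than their own spread. The 3 just inside were CPIJ004095 (-0.801), CPIJ005878 (-0.802) and CPIJ013195 (-0.802), and the 3 just outside were CPIJ001049, a partly saturated zinc metalloprotease (-0.799), CPIJ010725 (-0.797) and CPIJ008012 (-0.796). Of 683 detected genes at or below -0.8 at 18 h, 413 were outside the limits at 6 h and 529 outside those at 12 h. The different probes of a member stood close together, with a median range of 0.05, and all probes lay below -0.4 in 62 of 63. The exceptions with wide ranges were CPIJ002620 (given above), CPIJ009892 (-1.35 to -0.38) and CPIJ015170 (-1.51 to -0.44).

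The size of the 18 h ratio depended on how background and dye were corrected, while its sign did not. Under the scanner software's dye normalization, which the choice used, the median over members was -0.86. Loess normalization gave -0.75 with subtracted background, -0.67 without background correction and -0.65 with normexp, the deposited log ratios gave -0.62 and median centring gave -0.54. All 63 lay below 0 under each, but only 22, 17, 9, 9 and 8 of them still averaged -0.8 or less in that order. Applied to those values the rule picked 28, 25, 10, 9 and 64 genes, of which 18, 14, 6, 6 and 6 were members. CPIJ001745, CPIJ002137, CPIJ007432 and CPIJ012470 met the rule under all 5 of the corrections with loess or as deposited, a refitted normexp among them, and 43 members met it under none of the 5.

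**Figure D5:**
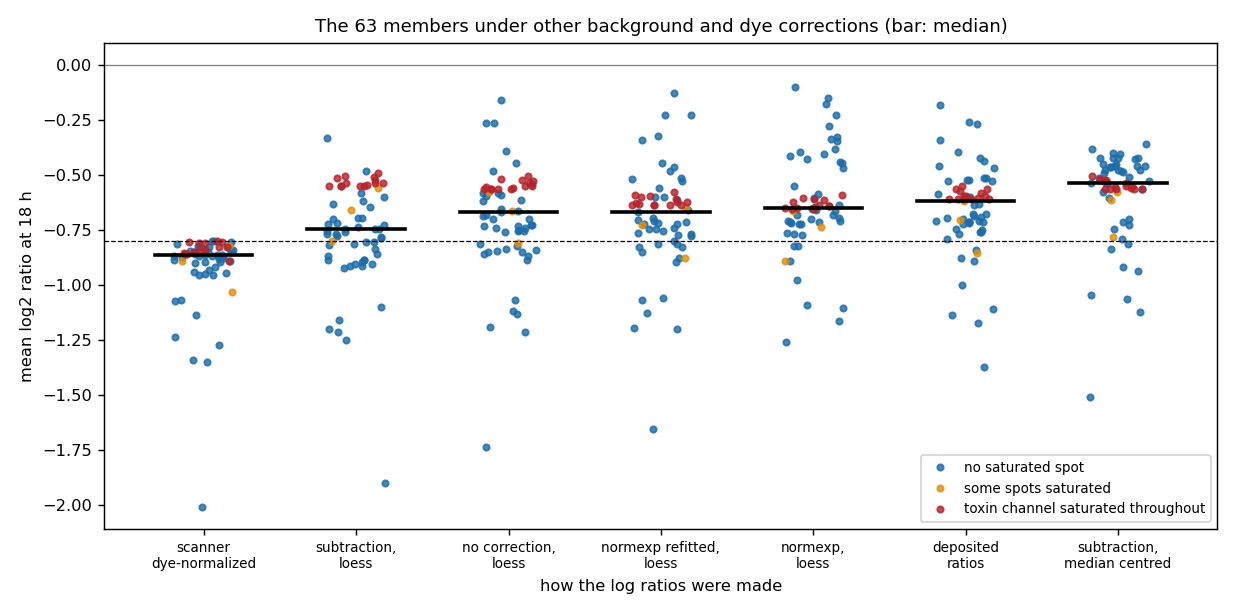
Average log2 ratio at 18 h of the 63 members (points, coloured by saturation) under 7 ways of making the log ratios, with the median as a bar and a dashed line at -0.8. All points lie below 0, but the medians run from -0.86 under the scanner's normalization to -0.54 after median centring, and most points stand above the limit outside the leftmost column.

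Markers of other tissues were examined by name on the same arrays. All 44 genes named for trypsin, amylase, maltase or peritrophin, the midgut list, were detected, 3 of them members and 8 with saturated spots, and their summed level at 18 h was 12.6 to 13.1 in toxin-treated and 13.6 to 13.7 in untreated midguts (log2, relative to the median spot). Summed levels of the 4 fat body genes were 5.54 to 6.32 and 8.16 to 8.27, of the 2 haemocyte genes 2.22 to 3.24 and 3.31 to 3.55, of the 4 muscle genes 6.05 to 6.61 and 6.03 to 6.23, of the 24 cuticle genes 5.92 to 7.99 and 6.16 to 6.47, and of the 12 genes matched by a salivary name, 2 of them only through the letters D7 in other gene names, 9.0 to 9.63 and 8.76 to 8.81, each time for toxin-treated and then for untreated midguts. No member is in these 5 lists of other tissues. The 24 members that the study does not list and the 12 called hypothetical or predicted could not match by name, so this absence does not show their tissue. The fat body and haemocyte sums were lower and the salivary sum higher in toxin-treated midguts on every array of 18 h. The midgut sum was lower too, but it includes the 8 genes with saturated spots, whose difference between the channels was not fully measured. A midgut sum without these 8 genes was not made, so nothing is read from its difference. All these lists hold only genes the study listed as changed on the same arrays, so the differences are not independent of that choice. The part of other cells in the members' ratios was not tested. In pooled tissue fewer cells of a type and less RNA per cell cannot be told apart.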

How the data were processed

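Midgut RNA of toxin-treated (Cy5) and untreated (Cy3) larvae was compared on 12 Agilent arrays with 45220 spots each, of which 1417 are controls. Per the file headers the deposited intensity values come from Agilent Feature Extraction 11.5.1.1: spot and local background medians, and processed signals that the software background-subtracted and dye-normalized. The authors deposited log2 ratios made with limma, used here as an alternative. The genome build is not given in the sources used here.

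The log2 ratio of processed Cy5 over Cy3 signals was averaged over the 2 to 6 spots of a gene. A mean per time was fitted to all 12 arrays with limma 3.58.1 in R 4.3.3 (lmFit, eBayes, 9 residual degrees of freedom), and p-values were adjusted by Benjamini-Hochberg over all 19751 genes. A call needed an adjusted p under 0.05 and at least 0.75 in log2. Background subtraction, no correction, normexp (offset 50), loess, median and scale centring, spot filters and leaving out arrays were the alternatives. Figures were drawn with matplotlib 3.10.9. On simulated arrays with 200 changed genes, the fit was tested before use.

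The members and gene lists were chosen with earlier results of these data known. Named with values were the 12 lowest members, up to 5 members per list, members in identifier groups of 3 or more, and the 3 genes on each side of the limit; others are marked as picked out after their values were seen. Names are those the study pairs with 3780 identifiers; the reference table matched 0. Between 72.8% and 88.5% of spots were well above background per array and channel, and precision is limited by having 4 arrays a time. No probe sequences were used.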

Additional observations from a re-analysis of the deposited data

Results flagged for a closer look

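Among 78 sets of 4 arrays (25 members named by rule and the median of all members, each at each time), 2 held an array standing far from the other 3, where chance would give about 1 in 20. For serine protease1/2 (CPIJ002137), replicate 3 of 18 h read -1.43 while the other 3 lay between -0.99 and -0.94. For the plasma glutamate carboxypeptidase gene CPIJ001173, replicate 2 of 6 h read 0.78 while the others lay between 0.23 and 0.26.

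The contrast of exposure times called 14 of the 63 members lower at 18 h than at 12 h, with 2.35% of all genes, and 35 lower at 18 h than at 6 h, with 2.49% of all genes (limma, adjusted p under 0.05 and at least 0.75 in log2). These contrasts hold values that the choice of members used and are given as counts only.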

How the results depend on the processing

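The 25 members named by rule and the 3 genes just outside the limit stayed below 0 at 18 h under 10 alternatives of background, dye correction or spot averaging (280 values), and 65 of these values moved by over 1 SD. The counts of members called lower at 18 h, called lower than at 12 h and called lower than at 6 h were 62, 14 and 35. They were 11, 7 and 17 with normexp and loess (1.24%, 0.608% and 0.967% of all genes), 20, 8 and 24 with normexp refitted without uneven backgrounds (1.79%, 1% and 1.64%), 29, 11 and 32 with subtraction and loess (2.47%, 1.84% and 2.21%), 20, 8 and 26 without background correction (1.95%, 1.17% and 1.71%), and 14, 7 and 18 from the deposited ratios (1.41%, 0.785% and 1.04%). With median centring they were 10, 10 and 20, where 17.7%, 3.94% and 8.82% of all genes were called, so that the 10 members at 18 h were no larger a share than among all genes. The members' median at 18 h (-0.86) was -0.65, -0.67, -0.75, -0.67, -0.62 and -0.54 in that order, and the rule picked 10, 23, 28, 25, 9 and 64 genes. Calls against 12 h were 9 without saturated spots (2.01% of all genes) and 31 without a fold threshold (5.48%), and calls against 6 h were 15 without the 3 arrays of bright local background (1.44%). Leaving out 1 array in turn gave 53 to 63 calls at 18 h (4.4% to 4.72% of all genes), 9 to 18 against 12 h (1.34% to 3.31%), 17 to 37 against 6 h (1.74% to 2.53%), a median of -0.89 to -0.86, and 57 to 77 genes picked. The 9 were without 18 h replicate 1 and the 17 without 6 h replicate 2 or 3.

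Quantile scaling of the channels, chosen after seeing the data, gave differences of 18 h from 12 h of -0.26 (toxin-treated) and 0.31 (untreated), and from 6 h of -0.47 and 0.35. With only the 46 unsaturated members the calls were 45, 9 and 31. The causes were not tested. Deviations of arrays that share a replicate number correlated between -0.14 and 0.37 (mean 0.118 over 12 pairs, against -0.039 for other pairs). Since not every pair was above 0.1 and the labels give the numbers no further meaning, they were not used to pair samples. With the replicate block the calls were 63, 15 and 39 (4.78%, 2.36% and 2.87% of all genes). Brightness limits the 14 saturated members, for which no ratio was measured.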

Other observations

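In 11 of the 46 measured members replicates 1 and 2 both lay above replicates 3 and 4 at 6 h and again at 12 h, an order that 6.72% of detected genes without saturation showed. They were CPIJ000232, CPIJ002137, CPIJ005531, CPIJ012376, CPIJ012381, CPIJ012391, CPIJ012415, CPIJ014047, CPIJ015014, CPIJ019271 and CPIJ019924, and in 8 of them the same order held at 18 h. Their median log2 ratios were 0.41, 0.31, -0.24 and -0.62 on the 6 h arrays in the order of the replicate numbers, 0.07, 0.08, -0.55 and -0.62 on the 12 h arrays, and -0.73, -0.74, -1.03 and -1.17 on the 18 h arrays. Averages near 0 at 6 h in this set therefore joined arrays above 0 with arrays below 0. CPIJ015014 was the most divided, with 0.96, 0.20, -1.75 and -1.36 at 12 h, and it was the 1 member not called lower at 18 h. The set was noticed in the data, and what the replicate numbers share beyond their label was not tested.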
